A study of Mus musculus with 17 samples.

Results

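The lipid droplet coat and lipase genes examined here are 10 mouse genes: the perilipins Plin2, Plin3, Plin4 and Plin5, the droplet fusion genes Cidea and Cidec, the lipase gene Pnpla2 and its inhibitor G0s2, the droplet enzyme gene Hsd17b13 and the synthesis gene Mogat1. They were taken by gene symbol from the 2 deposited tables of estimated counts, and all 10 were listed in both, among 19151 genes in the table of the high-fat diet (HFD) and 24233 in that of the Western diet (WD). NgBR, encoded by Nus1, is a subunit of the enzyme that makes dolichol, and the study asked what its loss from liver does under fat-rich feeding. RNA-seq was run on 17 libraries of mice in a C57BL6 background, all fed chow first and then either diet for 16 weeks. Under HFD there were 4 WT and 4 liver-specific NgBR knockout (N-LKO) livers. Under WD, a diet high in fat and cholesterol, there were 3 WT livers, 3 N-LKO livers and 3 tumors of N-LKO mice. The knockout came from crosses of loxP-flanked NgBR mice with an albumin-Cre line, in which the albumin promoter drives the recombinase in hepatocytes, so other liver cells should keep the gene. Whether the WT mice carried loxP alleles or Cre, and whether a tumor and an N-LKO liver came from one mouse, was not given in the labels.

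As background, a lipid droplet is a core of neutral lipid, mainly triglyceride and cholesteryl ester, under a single phospholipid layer that carries a coat of proteins. Perilipins coat the droplet and control how lipases reach it, CIDE proteins let small droplets pass their lipid into larger ones, and adipose triglyceride lipase (ATGL), the product of Pnpla2, takes the first step in breaking triglyceride down. In hepatocytes perilipin 2 is the main coat, and several of the other genes are kept low in lean liver and are known to be expressed more in fatty liver.

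Depth was 9096110 to 12215784 counts per library under HFD and 15494731 to 20200618 under WD. Levels are in CPM, the usual unit that sets the count of a gene relative to the size of its library, here with library sizes scaled by the TMM method, and each fold change comes from edgeR's quasi-likelihood test with Benjamini-Hochberg adjustment over all genes tested, at a threshold of 0.05. Nus1, the targeted gene, lay at 29.3 to 37.9 CPM in N-LKO and 82.4 to 96.0 in WT livers under HFD, and at 41.6 to 51.1 and 88.1 to 98.8 CPM under WD, with no overlap in either diet. Its log2 difference was -1.33 under HFD (edgeR adjusted p = 0.000194) and -1.02 under WD, where no gene passed (edgeR adjusted p = 0.151). In the tumors it was at 28.9 to 43.9 CPM. The defining adipocyte markers Adipoq and Plin1 were at 0 to 2 and 0 to 1 counts in the WD livers and at 0 to 7 and 0 to 4 counts in the tumors, and neither was listed in the HFD table. Markers of muscle summed to 158 CPM in tumor replicate 2 and to at most 0.569 CPM in every other WD library. In bulk samples, fewer cells of a type and less RNA per cell cannot be told apart.

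Sequence just before the start of transcription is shown for the genes the results turn on: Hsd17b13 and Plin3, which rose in N-LKO liver under HFD, and Plin2, Plin4 and Cidec, which had low values in tumors. RefSeq windows (GRCm38.p6) were found for 9 of the 10 genes, and the 250 bases before the annotated start were searched on both strands for the nuclear receptor half-site AGGTCA and for its direct repeat with 1 base between (a DR1 element, the arrangement that PPAR receptors are known to bind), with at most 2 mismatches over the 12 bases. Capitals mark the matches, and each sequence reads 5′ to 3′ on the strand of the gene, which for all 5 is the minus strand.

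Hsd17b13, chr5:103977389-103977638: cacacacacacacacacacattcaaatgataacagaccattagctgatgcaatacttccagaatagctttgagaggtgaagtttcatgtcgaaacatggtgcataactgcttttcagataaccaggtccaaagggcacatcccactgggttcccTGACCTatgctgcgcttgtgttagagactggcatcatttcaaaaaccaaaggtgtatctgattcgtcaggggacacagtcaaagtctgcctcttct
Plin3, chr17:56290512-56290761: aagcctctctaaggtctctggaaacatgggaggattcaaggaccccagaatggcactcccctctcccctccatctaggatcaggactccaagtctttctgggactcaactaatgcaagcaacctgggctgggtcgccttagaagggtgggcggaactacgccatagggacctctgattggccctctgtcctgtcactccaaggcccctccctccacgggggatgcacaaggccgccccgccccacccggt
Plin2, chr4:86670060-86670309: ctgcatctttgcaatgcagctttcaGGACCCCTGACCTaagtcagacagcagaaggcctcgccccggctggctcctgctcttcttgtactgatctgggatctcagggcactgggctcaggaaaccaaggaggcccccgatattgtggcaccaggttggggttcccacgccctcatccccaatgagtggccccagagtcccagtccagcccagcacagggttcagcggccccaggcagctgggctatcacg
Plin4, chr17:56109783-56110032: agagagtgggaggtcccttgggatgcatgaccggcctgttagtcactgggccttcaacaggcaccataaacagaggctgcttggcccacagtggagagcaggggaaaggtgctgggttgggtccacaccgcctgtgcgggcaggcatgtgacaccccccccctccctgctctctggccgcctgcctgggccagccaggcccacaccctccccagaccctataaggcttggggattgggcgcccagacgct
Cidec, chr6:113435761-113436010: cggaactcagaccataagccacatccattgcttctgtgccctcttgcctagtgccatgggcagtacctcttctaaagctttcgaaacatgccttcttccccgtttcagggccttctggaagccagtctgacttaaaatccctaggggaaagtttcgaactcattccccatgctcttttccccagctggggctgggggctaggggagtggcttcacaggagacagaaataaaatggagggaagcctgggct

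The half-site was found in the windows of Hsd17b13, Plin2 and Plin5, that is in 3 of the 9 genes, and in 14.02% of the 32851 mouse promoter windows of the same length. The direct repeat was found in Plin2, where it covers the half-site, and in Mogat1, and in 3.24% of all windows. The capitals of Plin2 are that repeat, read on the other strand, and those of Hsd17b13 are a half-site read on the other strand. The Mogat1 match read AGGTAAAAAGTCA, from 51 to 39 bases before the RefSeq start, and lies inside the GENCODE gene model, which starts earlier. The Plin3 window lies inside the longer GENCODE model of that gene too. The windows shown for Plin3, Plin4 and Cidec held neither motif. A match is a description of the letters and not a measured binding site.

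Under HFD, 2 of the 10 genes passed the test between N-LKO and WT liver, both with higher levels in N-LKO: Hsd17b13, which rose 1.60-fold, and Plin3, which rose 1.45-fold. The same test called 4.84% of the 13460 genes tested, 2.56% of them higher and 2.29% lower. These were also the 2 of the 10 whose groups did not overlap, against 14.8% of all genes. The median log2 difference of the 10 genes was 0.12, beside -0.01 over all genes tested.

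**Figure D1:**
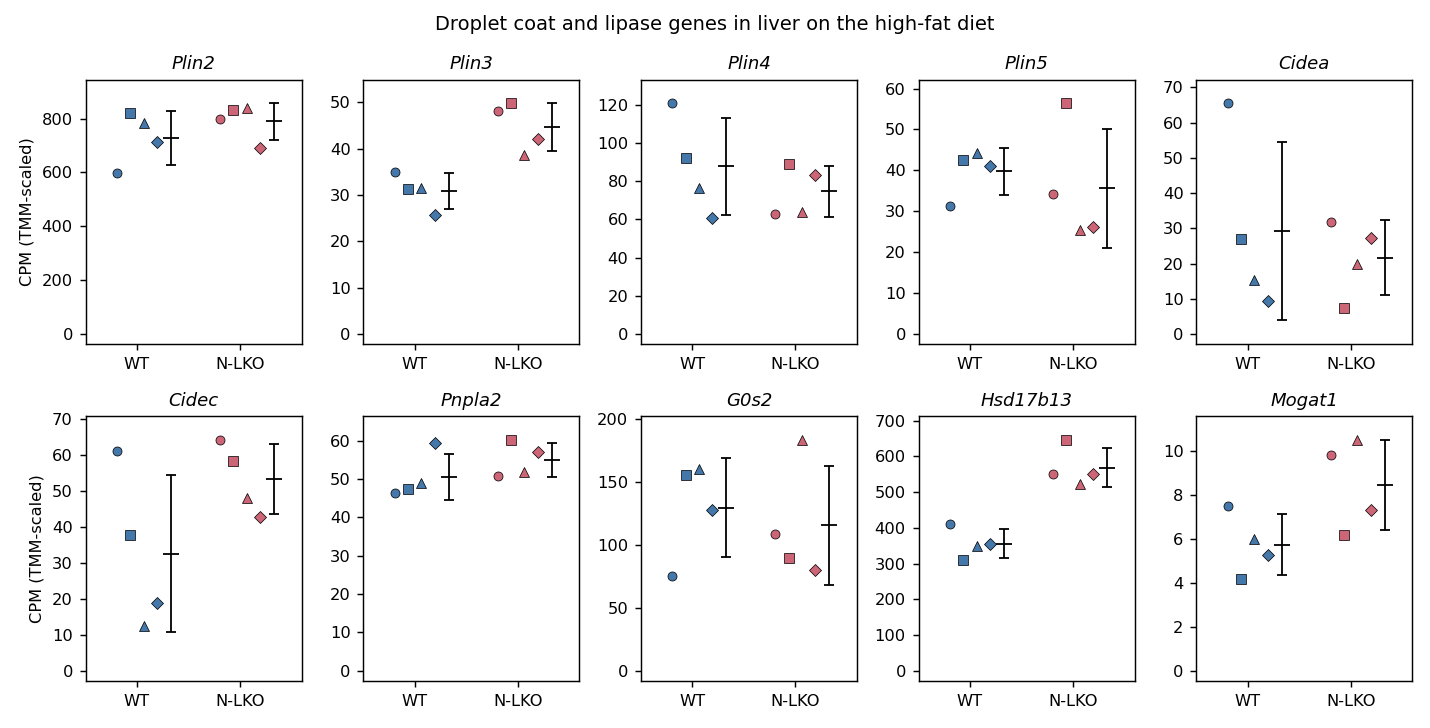
Level of each of the 10 droplet genes in the HFD livers, in CPM on a linear axis that includes 0. Each point is 1 library, its shape marks the replicate number, and the bar beside each group is the mean with the SD (4 libraries per group). Plin3 and Hsd17b13 are the genes whose WT and N-LKO points do not overlap; the SDs of Cidea and Cidec in WT liver are wide.

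Positions of whole genes, from the first to the last exon, are given here on GRCm38 as in the GENCODE M21 annotation. Hsd17b13 (chr5:103955440-103977410, minus strand) encodes a hydroxysteroid dehydrogenase family protein that sits on hepatocyte lipid droplets and is known from fatty liver. In WT livers under HFD it was at 409, 310, 348.5 and 355 CPM in replicates 1 to 4, and in N-LKO livers at 550, 647, 523 and 551 CPM. The lowest N-LKO library thus stood above the highest WT library. The log2 fold change was 0.67 (SE 0.10, 95% interval 0.44 to 0.90) with an edgeR adjusted p of 0.00988. The call held without any one of the 8 libraries, with adjusted p between 0.00939 and 0.0336.

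Plin3 (chr17:56277476-56292873, minus strand) encodes perilipin 3, also known as TIP47, which is present in most cells and is known to move from the cytosol to newly forming droplets. Its levels were 34.9, 31.3, 31.4 and 25.6 CPM in WT and 48.1, 49.8, 38.5 and 42.2 CPM in N-LKO livers. All N-LKO libraries exceeded all WT libraries. The log2 fold change was 0.54 (SE 0.11, 95% interval 0.29 to 0.79), with an edgeR adjusted p of 0.0251. Without N-LKO replicate 1, WT replicate 2 or WT replicate 4 it did not pass, with edgeR adjusted p of 0.0762, 0.0667 and 0.0687, while the log2 fold change stayed between 0.46 and 0.61 over the 8 such fits.

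The main coat did not pass the test. Plin2 (chr4:86648386-86670060, minus strand), the perilipin that is stable only when bound to droplets and so marks stored lipid in hepatocytes, was at 596, 822, 785 and 711 CPM in WT and at 798, 831, 840 and 691 CPM in N-LKO livers. The groups overlapped, and the log2 difference was 0.12 with a 95% interval from -0.13 to 0.36, an edgeR adjusted p of 0.581. Plin4 and Plin5 lie side by side on the minus strand of chromosome 17, close to Plin3, and encode a perilipin of adipocytes and muscle and one that tethers droplets to mitochondria. Plin4 (chr17:56100591-56109803) ranged from 61.0 to 121 CPM in WT and from 62.9 to 89.1 in N-LKO livers, with a log2 difference of -0.23 and an interval from -0.64 to 0.18. Plin5 (chr17:56111601-56117596) ranged from 31.3 to 44.2 CPM in WT and from 25.4 to 56.5 in N-LKO livers, a log2 difference of -0.16 with an interval from -0.64 to 0.33. Both overlapped between genotypes.

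Both fusion genes varied widely between the WT livers. Cidec (chr6:113424634-113435760, minus strand), also called Fsp27, promotes large droplets in adipocytes and in steatotic hepatocytes. It was at 61.1, 37.7, 12.5 and 18.8 CPM in WT livers and at 64.4, 58.4, 48.0 and 42.8 CPM in N-LKO livers. WT replicate 1 stood within the N-LKO range and the other 3 WT livers below it. The log2 difference of 0.71 had a 95% interval from -0.09 to 1.51 and did not pass, with an edgeR adjusted p of 0.272. Without WT replicate 1 it was 1.20 with an edgeR adjusted p of 0.0448, and this library alone decided the call. Cidea (chr18:67343604-67367785, plus strand), the related gene of brown fat that also appears in fatty liver, was at 65.6, 27.0, 15.4 and 9.25 CPM in WT and at 31.7, 7.48, 20.0 and 27.4 CPM in N-LKO livers. WT replicate 1 was the highest of the 8 livers and N-LKO replicate 2 the lowest, and the log2 difference of -0.44 had an interval from -1.59 to 0.72.

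On the side of lipolysis, Pnpla2 (chr7:141455198-141460743, plus strand), the gene of ATGL, was at 46.3 to 59.4 CPM in WT and 50.8 to 60.3 CPM in N-LKO livers. Its log2 difference of 0.12 had a narrow interval, -0.09 to 0.34. G0s2 (chr1:193272161-193273217, minus strand), whose small protein binds and inhibits ATGL, was at 75.2 to 160.6 CPM in WT and 80.1 to 184 CPM in N-LKO livers, a log2 difference of -0.17 with an interval from -0.76 to 0.42. Abhd5, the coactivator of ATGL also called CGI-58, was at 11.3 to 28.2 and 10.7 to 25.8 CPM in the WT and N-LKO groups, with an edgeR adjusted p of 0.679. Ranges of the genotypes overlapped for all 3.

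Mogat1 (chr1:78510991-78538173, plus strand) encodes a monoacylglycerol acyltransferase that makes diacylglycerol, and it is known to be scarce in lean mouse liver. It had 44 to 72 counts in the WT libraries and 75 to 119 in the N-LKO libraries. The levels were 7.49, 4.198, 5.99 and 5.29 CPM in WT and 9.84, 6.17, 10.5 and 7.34 CPM in N-LKO livers. WT replicate 1 exceeded 2 of the N-LKO livers. The log2 difference of 0.56 (SE 0.22) had a 95% interval from 0.09 to 1.03, and after adjustment it did not pass (edgeR adjusted p = 0.1502).

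Under WD none of the 10 genes passed the edgeR test between N-LKO and WT liver. At an unadjusted p under 0.05 the number was 0 as well, and it was 0 with DESeq2 and 0 with limma-voom. On the TMM-scaled levels all 10 groups of values overlapped, where 27.9% of the 17829 genes tested did not overlap. With plain library sizes, N-LKO livers lay wholly above WT livers for Plin3, at 61.7 to 70.6 against 49.9 to 60.1 CPM. The same held for Plin5 (61.8 to 78.1 against 54.0 to 61.5 CPM) and Cidec (127 to 188 against 67.1 to 120 CPM), while the other genes still overlapped. The share of all genes apart without the scaling was not counted. The edgeR test called 0.0% of all genes in this comparison, 0 in number, with 2212 (12.4%) at an unadjusted p under 0.05, 87 called by DESeq2 (0.47% of the genes it gave an adjusted p) and 0 by limma-voom. The median log2 difference was 0.04 over the 10 genes and 0.01 over all genes.

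**Figure D2:**
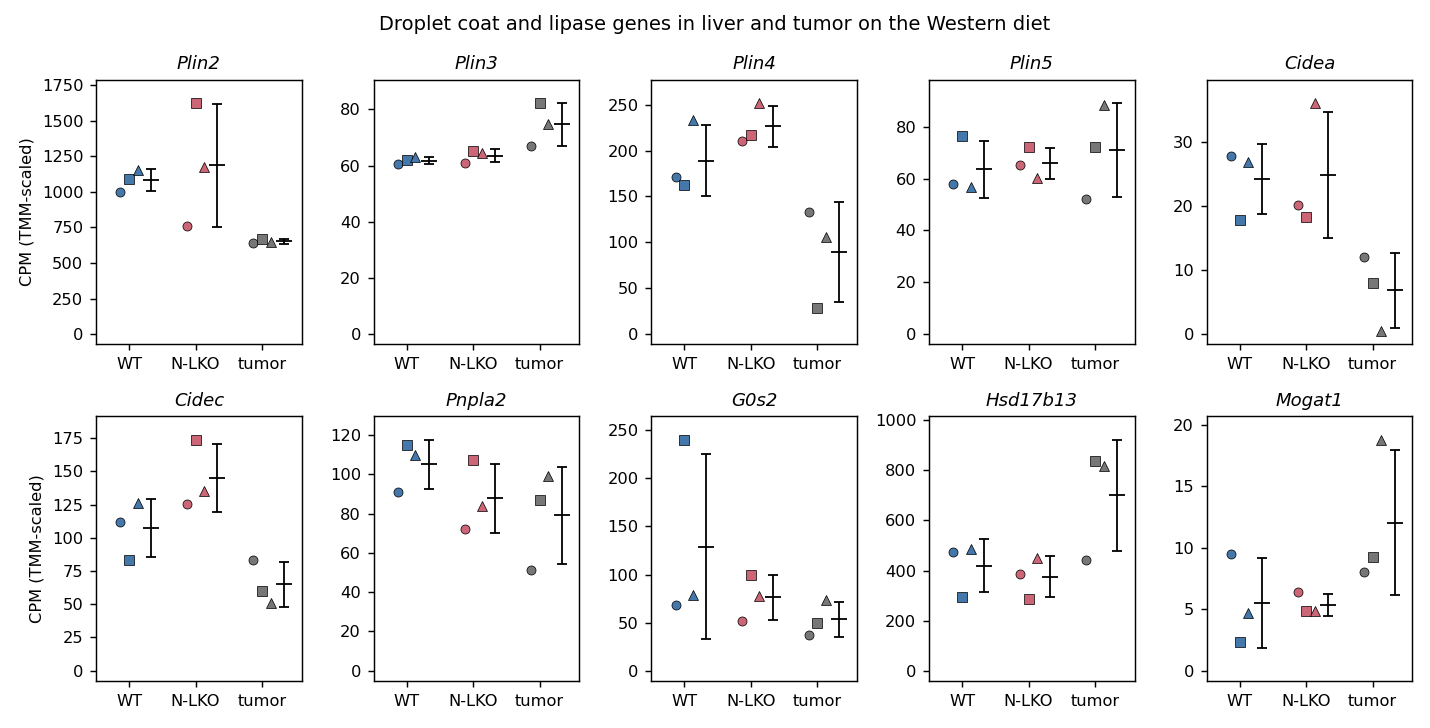
Level of each of the 10 droplet genes under WD, in CPM on a linear axis that includes 0, in WT liver, N-LKO liver and tumor. Each point is 1 library, its shape marks the replicate number, and the bars give the mean with the SD (3 libraries per group). Tumors lie below both livers for Plin2, Plin4 and Cidea, and liver groups overlap in every panel.

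Hsd17b13 was at 472, 296 and 487 CPM in WT and at 386, 288 and 450 CPM in N-LKO livers under WD. The 2 ranges nearly coincided, and the log2 difference was -0.16 (95% interval -0.80 to 0.48, edgeR adjusted p = 0.829). Plin3 was at 60.4, 61.9 and 63.0 CPM in WT and at 60.9, 65.2 and 64.4 CPM in N-LKO livers, a log2 difference of 0.04 with an interval from -0.22 to 0.30. The WT libraries of Plin3 lay close together.

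Plin2 was at 1002, 1093 and 1153 CPM in WT and at 762, 1627 and 1179 CPM in N-LKO livers. The N-LKO livers enclosed the WT range on both sides, and the log2 difference was 0.14 (95% interval -0.40 to 0.67). Cidec was at 112, 83.3 and 126.1 CPM in WT and 125, 174 and 135 CPM in N-LKO livers. Its log2 difference of 0.44 (SE 0.22, 95% interval -0.06 to 0.93) was the largest positive one of the 10 and did not pass, with an edgeR adjusted p of 0.444.

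None of the other genes passed either. Plin4 ranged from 162.3 to 233 CPM in WT and from 210 to 252 in N-LKO livers, and Plin5 from 56.6 to 76.3 and from 60.1 to 72.2. Cidea lay at 17.9 to 27.8 CPM in WT and at 18.3 to 36.1 CPM in N-LKO livers. Pnpla2 lay at 91.1 to 115 CPM in WT and 72.3 to 107 CPM in N-LKO livers. For all 4 the genotypes overlapped.

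G0s2 turned on 1 library. It was at 68.0, 240 and 78.9 CPM in WT livers and at 51.7, 99.0 and 77.9 CPM in N-LKO livers. WT replicate 2 stood far above the other 8 WD libraries, and its TMM factor of 0.806 was also the lowest of the WD table. With it the log2 difference was -0.76 (95% interval -1.78 to 0.27), and without it 0.050. Mogat1 was at 9.46, 2.30 and 4.71 CPM in WT and at 6.40, 4.84 and 4.89 CPM in N-LKO livers. Its log2 difference was -0.03 with a 95% interval from -1.06 to 1.01, and it became 0.61 without WT replicate 1.

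To ask whether the genotype difference depended on diet, the difference under HFD was taken from that under WD in 1 fit over the 14 livers. This test called 1.62% of 15850 genes and none of the 10 droplet genes. By edgeR 2 of the 10 had an unadjusted p under 0.05, where 20.0% of all genes did. DESeq2 called those 2 and limma-voom called 0, where they called 8.09% and 1.94% of all genes with an adjusted p. They were Hsd17b13, at -0.82 on the log2 scale (SE 0.25, 95% interval -1.35 to -0.28, edgeR adjusted p = 0.0977), and Plin3, at -0.48 (SE 0.15, 95% interval -0.80 to -0.15, edgeR adjusted p = 0.103). DESeq2's adjusted p was 0.0340 for Hsd17b13 and 0.0461 for Plin3, and edgeR without WT replicate 2 of the WD group called Hsd17b13 too, at -1.03 (adjusted p = 0.0493). The higher N-LKO level of these genes under HFD was thus not shown by the edgeR test to differ from their difference under WD.

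Tumors were then compared with both liver groups of the same diet. The 2 comparisons share the tumor libraries, and are given side by side. Against N-LKO liver, none of the 10 genes passed the edgeR test, which called 0.499% of the 17829 genes tested. Of the 10, 6 had an unadjusted p under 0.05, 4 lower and 2 higher in tumor, where 18.3% of all genes did, 8.19% lower and 10.1% higher. DESeq2 called 4 of the 10 and limma-voom 0, where they called 5.25% and 0.101% of all genes with an adjusted p. Against WT liver none passed either, where the edgeR test called 14.9% of all genes. There 8 had an unadjusted p under 0.05, 5 lower and 3 higher, where 32.5% of all genes did, 15.1% lower and 17.5% higher. DESeq2 called 4 of the 10 and limma-voom 0, where they called 18.1% and 13.4% of all genes with an adjusted p. Values of tumor and N-LKO liver did not overlap for 6 of the 10 genes, against 23.1% of all genes, and those of tumor and WT liver for 4 of the 10, against 34.1%. The median log2 difference of the 10 genes was -0.33 against N-LKO and -0.57 against WT liver, beside 0.02 and 0.04 over all genes.

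**Figure D3:**
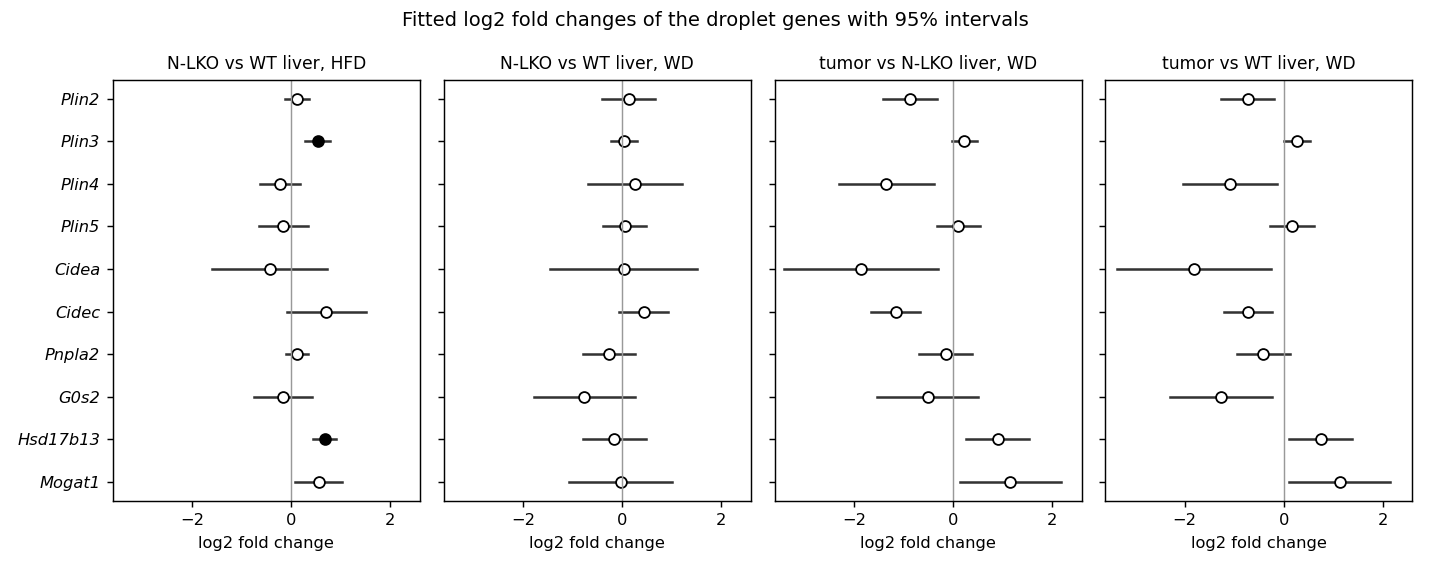
Log2 fold change of each of the 10 droplet genes in 4 comparisons, with the 95% interval of the edgeR fit as a line. Filled circles passed an adjusted p of 0.05 and open circles did not; the filled ones are Plin3 and Hsd17b13 in N-LKO against WT liver under HFD. In both tumor comparisons the intervals of Plin2, Plin4, Cidea and Cidec lie below 0 and those of Hsd17b13 and Mogat1 above it.

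Among the coats, Plin2 was at 638, 670 and 651 CPM in the tumors, below every WD liver (762 to 1627 CPM). On the TMM-scaled levels the tumors lay close together, while the N-LKO livers were widely spread. With plain library sizes the tumors were at 679, 770.6 and 653 CPM. The lowest WD liver, N-LKO replicate 1, was then at 771.2 CPM, just above tumor replicate 2. The log2 difference was -0.86 against N-LKO liver (SE 0.24, 95% interval -1.40 to -0.32, edgeR adjusted p = 0.117) and -0.73 against WT liver (SE 0.24, interval -1.27 to -0.19, edgeR adjusted p = 0.0693). DESeq2 called it in both, with adjusted p of 0.0128 and 0.0150. Leaving out N-LKO replicate 1 or 2, which do not enter the contrast but do enter the shared estimate of spread, brought the edgeR adjusted p against WT liver to 0.0389 and 0.0428. Without N-LKO replicate 2, the highest liver, the difference from N-LKO liver was -0.57 with an edgeR adjusted p of 0.353.

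Plin4 was at 133, 28.5 and 106 CPM in the tumors, below all 6 livers (162.3 to 252 CPM). Tumor replicate 2, the library with the muscle markers, was the lowest, and the part of those markers in its value was not tested. The log2 difference was -1.34 against N-LKO liver (SE 0.43, edgeR adjusted p = 0.151) and -1.08 against WT liver (SE 0.43, edgeR adjusted p = 0.112). DESeq2 called both, with adjusted p of 0.0234 and 0.0364, and so did edgeR without tumor replicate 1, at 0.0385 and 0.0443. Without tumor replicate 2, the lowest, the differences were -0.93 and -0.69, with edgeR adjusted p of 0.116 and 0.0584. Without tumor replicate 1 the test against N-LKO liver called 2193 of all genes, against 89 with it.

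Plin3 was at 66.9, 82.2 and 74.9 CPM in the tumors, above all 6 WD livers (60.4 to 65.2 CPM), though by little. The log2 difference was 0.23 against N-LKO liver (95% interval -0.03 to 0.49, edgeR adjusted p = 0.320) and 0.27 against WT liver (interval 0.01 to 0.53, edgeR adjusted p = 0.134), and the latter was 0.17 without tumor replicate 2. Plin5 was at 52.3, 72.3 and 88.6 CPM in the tumors, which enclosed the range of the livers. Its log2 differences were 0.11 and 0.16, with intervals from -0.33 to 0.55 and from -0.28 to 0.60.

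Both fusion genes had low values in the tumors. Cidec was at 83.4, 60.2 and 51.2 CPM, below all N-LKO livers, while tumor replicate 1 came just above the lowest WT liver at 83.3 CPM. It had the lowest adjusted p of the 10 genes in each tumor comparison, with log2 differences of -1.16 against N-LKO liver (SE 0.22, 95% interval -1.65 to -0.66, edgeR adjusted p = 0.0587) and -0.72 against WT liver (SE 0.22, interval -1.22 to -0.23, edgeR adjusted p = 0.0536). These lay close to the threshold, and several alternatives passed it. DESeq2 gave adjusted p of 0.000127 and 0.0122, edgeR without tumor replicate 1 gave 0.00530 and 0.0153, and against WT liver DESeq2's size factors in edgeR gave 0.0471 and edgeR with no filter gave 0.0483.

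Cidea was at 12.1, 7.94 and 0.468 CPM in the tumors, below the 17.9 to 36.1 CPM of the livers. The value of tumor replicate 3 rested on 9 counts, while the other tumors had 241 and 179. The log2 difference was -1.86 against N-LKO liver (95% interval -3.41 to -0.30, edgeR adjusted p = 0.204) and -1.82 against WT liver (interval -3.38 to -0.26, edgeR adjusted p = 0.103). Without tumor replicate 3 it was -1.28 against WT liver and passed, with an edgeR adjusted p of 0.0443, and without tumor replicate 1 it was -2.50, with an edgeR adjusted p of 0.0464.

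Since Cidea, Cidec and Plin4 are also genes of adipocytes, markers of that cell were set beside them. The 5 adipocyte markers listed in the WD table summed to 41.1 to 72.8 CPM in WT livers, 52.7 to 77.1 in N-LKO livers and 64.6, 464 and 536 CPM in the tumors, of which Fabp4, a fatty acid carrier that macrophages and endothelium also make, was 54.8 to 519 CPM. Adipoq and Plin1, the markers that define the cell, were at or near 0 in every WD library. Cfd, which encodes the adipocyte protein adipsin, went the other way from Fabp4, at 3.70 to 24.5 CPM in WT livers, 2.80 to 4.62 in N-LKO livers and 0.052 to 1.36 in the tumors, so that tumors lay below both livers as they did for Cidea and Plin4. Tumor replicates 2 and 3, which had the high sums, had lower Cidec levels than replicate 1. The part of adipocyte RNA in these results was not tested.

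Pnpla2 was at 51.6, 87.2 and 98.9 CPM in the tumors and G0s2 at 37.3, 49.8 and 73.5 CPM. Tumor values of Pnpla2 overlapped both livers, with log2 differences of -0.15 and -0.41 against N-LKO and WT liver and edgeR adjusted p of 0.785 and 0.261. The G0s2 difference was -0.51 against N-LKO liver (edgeR adjusted p = 0.595) and -1.27 against WT liver (SE 0.47, edgeR adjusted p = 0.0914). DESeq2 called the latter, with an adjusted p of 0.0231. Without WT replicate 2, the library with the high G0s2 level, it was -0.46 with an edgeR adjusted p of 0.413.

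Hsd17b13 was at 444, 839 and 818 CPM in the tumors, against 288 to 487 CPM in the livers. Tumor replicates 2 and 3 stood above every liver and replicate 1 within the liver range. The log2 difference was 0.90 against N-LKO liver (SE 0.29, 95% interval 0.26 to 1.55, edgeR adjusted p = 0.14996) and 0.74 against WT liver (SE 0.29, interval 0.10 to 1.39, edgeR adjusted p = 0.105). Without tumor replicate 1 these were 1.14 and 0.98, with edgeR adjusted p of 0.0208 and 0.0239. DESeq2 called the first comparison, with an adjusted p of 0.0422, and not the second, at 0.0653.

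Mogat1 was at 8.03, 9.27 and 18.8 CPM in the tumors, from 160 to 361 counts. All 3 tumors exceeded the N-LKO livers (4.84 to 6.40 CPM), while WT replicate 1 at 9.46 CPM exceeded 2 of the tumors. The log2 difference was 1.16 against N-LKO liver (SE 0.46, 95% interval 0.15 to 2.17, edgeR adjusted p = 0.218) and 1.13 against WT liver (SE 0.46, interval 0.11 to 2.16, edgeR adjusted p = 0.119). Without that WT library the second was 1.76 with an edgeR adjusted p of 0.0483. Without tumor replicate 3, the highest, the differences were 0.69 and 0.66, with edgeR adjusted p of 0.480 and 0.345.

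To compare the genes with each other, levels were divided by the length of the longest annotated transcript, in CPM per kilobase. Plin2 led in all 4 liver groups, from a mean of 386 CPM per kilobase in WT liver under HFD to 630 in N-LKO liver under WD, and Hsd17b13 came second, from 208 to 332. Their ranges were separate in WT livers and in N-LKO livers under WD. In N-LKO livers under HFD they overlapped, at 366 to 445 for Plin2 and 306 to 379 for Hsd17b13. In the tumors Hsd17b13 had the higher mean, 410 ± 130 (SD, n = 3) against 346 ± 8.72 for Plin2, again with overlap.

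G0s2 came next in every group, with means from 61.5 in the tumors to 149.1 CPM per kilobase in WT liver under HFD. The other genes formed a lower band, at means between 4.38 and 84.2 CPM per kilobase in the livers, in which many neighbours overlapped. Plin3 and Mogat1 closed the order in the livers. In the tumors Cidea was last, at 6.13 ± 5.29 (SD, n = 3), although its range overlapped that of Mogat1. The order depends on the length used. With the union of all exons as length, Hsd17b13 came before Plin2 in N-LKO liver under HFD too, at 242.5 to 300.0 against 196.7 to 239.2 CPM per kilobase. By that length the tumors no longer overlapped, at 205.8 to 388.9 for Hsd17b13 and 181.6 to 190.9 for Plin2. WT livers under HFD then did overlap, at 143.9 to 189.8 for Hsd17b13 and 169.8 to 234.0 for Plin2.

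Shares of the perilipin transcripts per kilobase show the make-up of the coat genes within each library, free of library scaling. Plin2 took 87.2% to 92.8% of the sum of Plin2, Plin3, Plin4 and Plin5 in the HFD livers, 82.4% to 90.4% in the WD livers and 80.5% to 84.7% in the tumors. Plin3 took 1.69% to 2.65% in WT and 2.21% to 2.85% in N-LKO livers under HFD, which overlapped through WT replicate 1. In the tumors it took 4.52% to 5.38%, above each of the 6 WD livers, at 1.88% to 3.41%. Plin5 took 6.49% to 10.4% in the tumors and 3.81% to 6.73% in the WD livers, with a small overlap. The shares depend on the length used, here the longest annotated transcript. That of Plin2 has 1888 bases and the union of its exons 3512, and the latter would give Plin2 lower shares. No test was run on the shares.

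**Figure D4:**
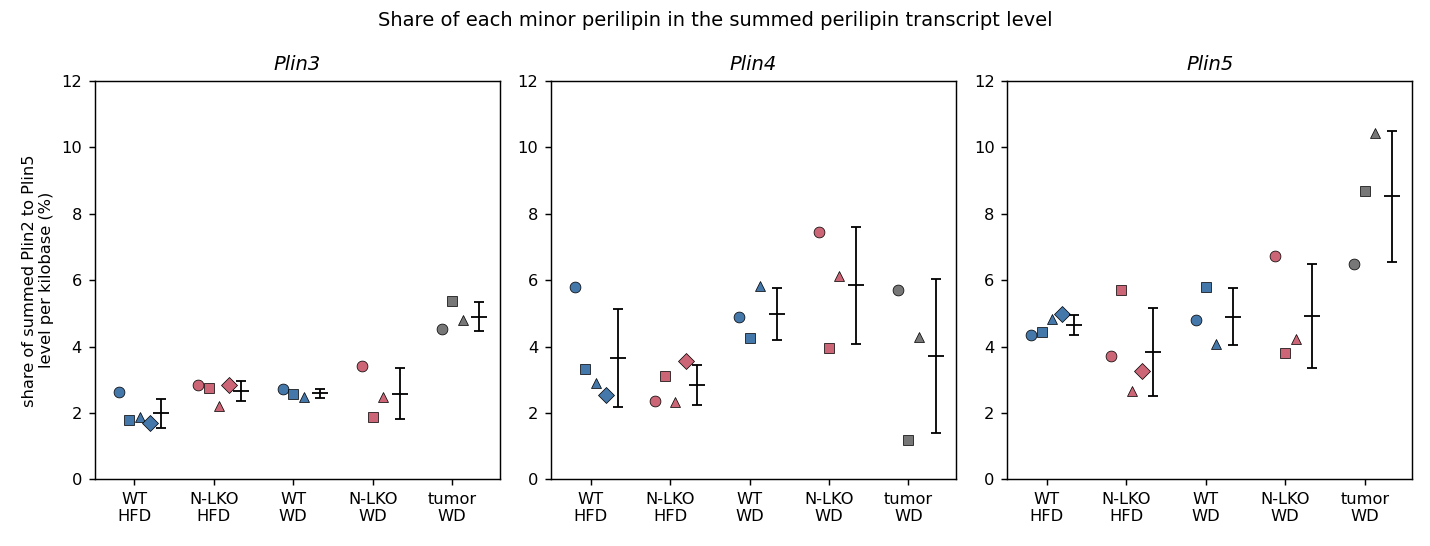
Share of Plin3, Plin4 and Plin5 in the summed level per kilobase of Plin2 to Plin5, in percent, on a linear axis from 0; the rest of each library is Plin2. Each point is 1 library, its shape marks the replicate number, and the bars give the mean with the SD (4 libraries per HFD group and 3 per WD group). The tumor points of Plin3 lie above those of all livers.

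The ratio of Cidec to Cidea per kilobase was 0.527 to 1.32 in WT and 1.01 to 5.06 in N-LKO livers under HFD, and 2.61 to 3.04 in WT and 2.43 to 6.14 in N-LKO livers under WD. In the tumors it was 4.47, 4.91 and 70.8, the last from the library with 9 counts of Cidea. The ratio of Pnpla2 to its inhibitor G0s2 was 0.0934 to 0.236 in all HFD livers and 0.158 to 0.464 in the WD livers, and 0.446 to 0.581 in the tumors. Ranges of genotypes overlapped for both ratios in each diet.

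The 2 tables were made and scaled separately, so levels under HFD and WD were not tested against each other, and diet and table cannot be told apart. Side by side, WT livers held 25.6 to 34.9 CPM of Plin3 under HFD and 60.4 to 63.0 under WD. They held 12.5 to 61.1 CPM of Cidec under HFD and 83.3 to 126.1 under WD, and 596 to 822 and 1002 to 1153 CPM of Plin2.

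Across libraries, Plin3 and Hsd17b13 varied together, with a Pearson correlation of their log2 CPM of 0.90 over the 8 HFD libraries and 0.79 over the 9 WD libraries. Within groups, after the group means were taken off, these were 0.53 and 0.54. Over 8613 genes, the 3 whose levels were most like those of Plin3, by the lower of the HFD and WD correlations, were Lsr at 0.93, Bod1l at 0.91 and Psip1 at 0.88. For Hsd17b13 they were Apoc2 at 0.93, Gstp3 at 0.89 and Ggct at 0.89. The points share libraries and group differences, and none of these 6 was among the 3 most alike after group means were taken off.

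Of the 10 genes, 4 overlap a gene on the opposite strand, and whether the counting used strand was not given in the sources used here, so reads of each pair may be mixed. G0s2 lies within Lamb3 over all of its 1057 bases, and Lamb3 was at means of 9.75 to 13.98 CPM in the 5 groups, below G0s2. Cidea overlaps B430212C06Rik by 500 bases (means of 1.31 to 2.30 CPM), Mogat1 overlaps BC035947 by 1168 bases (0.431 to 0.723 CPM) and Plin4 overlaps Hdgfl2 by 17 bases (15.0 to 23.9 CPM).

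Around these 10 genes, 39 others of droplet biology were counted as 1 list: further coats, lipases and cofactors, triglyceride and sterol ester synthesis, droplet formation, other droplet proteins and regulators. Between N-LKO and WT liver edgeR called none of them in either diet. Under HFD, of 35 tested, 5 had an unadjusted p under 0.05, 2 higher and 3 lower. DESeq2 called 2 and limma-voom 0. Under WD, of 36 tested, 6 had an unadjusted p under 0.05, all lower. DESeq2 called 0 and limma-voom 0. N-LKO values lay wholly below WT for 13 of the 36 and wholly above for 0, where 27.9% of all genes did not overlap. Under HFD 1 lay wholly above and 1 wholly below, against 14.8% of all genes. Under HFD 22.7% of all genes had an unadjusted p under 0.05, and DESeq2 called 7.4% of those with an adjusted p and limma-voom 4.55%. Under WD these shares were 12.4%, 0.47% and 0.0%. The list medians were -0.06 and -0.29 log2 under HFD and WD. In tumor against N-LKO liver none was called by edgeR either, with a median of -0.26. There 12 had an unadjusted p under 0.05, 10 lower and 2 higher, where 18.3% of all genes did, 8.19% lower and 10.1% higher. DESeq2 called 5 and limma-voom 0, where they called 5.25% and 0.101% of all genes with an adjusted p. In tumor against WT liver 15 fell and 1 rose, 44.4% of the 36 tested where the share over all genes was 14.9%, 6.8% lower and 8.08% higher, with a list median of -0.41. DESeq2 called 18 of the list and limma-voom 15, all 15 lower, where they called 18.1% and 13.4% of all genes with an adjusted p. In the test of the difference between diets none of 35 was called by edgeR. There 8 had an unadjusted p under 0.05, where 20.0% of all genes did. DESeq2 called 4 and limma-voom 0, where they called 8.09% and 1.94% of all genes with an adjusted p.

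The falls with the lowest adjusted p in tumor against WT liver were in genes of droplet formation, acyl activation and lipolysis. Fitm1 and Fitm2, whose proteins bind triglyceride and help droplets bud from the endoplasmic reticulum, fell by 0.90 and 0.95 on the log2 scale (edgeR adjusted p = 0.00626 and 0.0119). Acsl1, which activates long-chain fatty acids, fell by 1.29, from 2080 ± 212 to 851 ± 130 CPM (SD, n = 3 each, edgeR adjusted p = 0.00782). Ces1d, a carboxylesterase that hydrolyses stored triglyceride, fell by 1.21, from 547 ± 115 to 237 ± 60.1 CPM (SD, n = 3 each, edgeR adjusted p = 0.0137). The 1 gene that rose was Mogat2, of the same enzyme family as Mogat1, from 0.203 to 0.477 CPM in WT livers to 0.602 to 12.6 CPM in the tumors (edgeR adjusted p = 0.0230), on 3 to 8 and 12 to 284 counts. The values of Mogat2 in the tumors spread over a wide range, and limma-voom did not call it. For Acsl1, N-LKO livers under WD lay at 1215 to 1602 CPM and WT livers at 1843 to 2255 CPM. For Ces1d these ranges were 275 to 369 and 474 to 680 CPM, and for Fitm1 20.3 to 24.6 and 30.1 to 32.6 CPM. Values of Acsl1, Ces1d and Fitm1 thus lay lower in N-LKO than in WT liver, while Fitm2 overlapped. Of all genes, 27.9% did not overlap between these 2 groups. The genes were picked from the comparison of tumor with the same WT libraries, so their lower N-LKO values are not separate evidence. Tumors lay below N-LKO livers for Acsl1, Fitm1 and Fitm2, and overlapped them for Ces1d. EdgeR called none of these falls between N-LKO and WT liver or between tumor and N-LKO liver.

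The markers of the liver's cell types were set beside these comparisons. Hepatocyte markers summed to 60545 to 68197 CPM in WT and 53857 to 71494 CPM in N-LKO livers under HFD, and to 42614 to 52310, 30795 to 38685 and 33517 to 58556 CPM in WT liver, N-LKO liver and tumor under WD. In N-LKO against WT liver under HFD, edgeR called 1 of 6 macrophage and 1 of 5 endothelial markers lower, where it called 4.84% of all genes. At an unadjusted p under 0.05, 3 macrophage markers were lower and 1 higher, and 4 endothelial markers were lower. Also 1 hepatocyte marker was lower and 1 adipocyte marker higher, and 22.7% of all genes had such a p. DESeq2 called 1 macrophage and 2 endothelial markers and limma-voom 1 of each, all lower. Of the 6 markers of stellate cells and fibroblasts under HFD edgeR called 0, with 5 higher and 1 lower at an unadjusted p under 0.05. DESeq2 called 2 of these 6 and limma-voom 1, and their sums were 105 to 191 CPM in WT and 162.2 to 240 CPM in N-LKO livers. Under WD no marker of any list was called by edgeR, DESeq2 or limma-voom between genotypes. At an unadjusted p under 0.05, 3 of 6 hepatocyte and 1 of 3 adipocyte markers were lower. At the same cut 1 of 6 stellate cell and fibroblast markers and 1 of 4 cholangiocyte markers were higher. Of all genes 12.4% had such a p. In tumor against N-LKO liver, edgeR called 1 of 4 cholangiocyte markers higher, and 0.499% of all genes. At an unadjusted p under 0.05, these differed in 4 of 5 endothelial and 2 of 3 adipocyte markers. So did 1 macrophage, 1 stellate cell and fibroblast, 1 cholangiocyte and 1 T cell marker, where 18.3% of all genes did. DESeq2 called 3 endothelial, 1 adipocyte, 1 cholangiocyte and 1 T cell marker there (5.25% of all genes), and limma-voom 0 (0.101%). In tumor against WT liver, where edgeR called 14.9% of all genes, it called 2 of 6 hepatocyte markers lower. It called 1 of 3 adipocyte markers higher and 1 lower, and 2 of 5 endothelial markers higher and 1 lower. Also 1 of 4 cholangiocyte markers and 1 of 4 T cell markers were called higher by edgeR. DESeq2 (18.1% of all genes) called 1 macrophage and 1 stellate cell and fibroblast marker lower too, and limma-voom (13.4%) 1 macrophage marker. No muscle marker passed the filter on low counts. Their part in the values of the droplet genes was not tested.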

How the data were processed

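RNA of 14 livers and 3 tumors was depleted of ribosomal RNA and sequenced as single reads by the authors. The tables deposited by the authors hold estimated counts for each gene and library. The submitters' processing notes name STAR, Partek and the build mm9, while the study's methods name TopHat2. Gene positions in the deposited tables match GENCODE M21 (GRCm38), which was used for symbols, lengths and coordinates. Here the estimated counts were rounded to integers before testing, with edgeR 4.0.16 (quasi-likelihood F test, TMM scaling, filterByExpr, Benjamini-Hochberg adjustment over all genes tested). The 8 HFD livers were fitted alone, the 9 WD libraries together, and the interaction over 14 livers. Standard errors were derived from the F statistic and are approximate. Each library is labelled as a biological replicate. No 2 libraries of a group agreed within sampling noise. Of the values in the HFD and WD tables, 73.8% and 71.5% were whole within 0.005 and the others fractional. The number of counts behind low values is given beside them.

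The 10 genes, the pathway list of 39 genes, the marker lists of 8 cell types and the rule for named genes were chosen with earlier results of these data known. The rule named the 10 genes, Nus1, the known partner Abhd5, at most 4 called list genes per comparison and direction, and the 3 genes most like each called gene (lower Pearson correlation of log2 CPM, prior count 2, mean of at least 5 CPM). Pnpla3 and Plin1 were listed under WD alone; the marker genes Adipoq, Cfd, Fabp4 and Plin1 were named after their values were seen, and Lamb3, B430212C06Rik, BC035947 and Hdgfl2 for their overlaps. Alternatives were other scalings, filters and tests (DESeq2 1.42.0, limma-voom 3.58.1), a length and GC offset, a replicate block, 2 groups only, each library left out, unscaled CPM and another gene length. The procedure was tested on simulated data. Promoter sequences are from RefSeq (GRCm38.p6). Computation used R 4.3.3 and Python 3.11.15.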

Additional observations from a re-analysis of the deposited data

How the results depend on the processing

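Of the 10 genes, Hsd17b13 under HFD passed in every alternative, and no direction of a called gene turned. The number of the 10 genes called was 2 under HFD and 1 to 3 with a library left out. In tumor against N-LKO liver it was 0, and 4 with DESeq2 and 0 to 3 with a library left out. In tumor against WT liver it was 0, and 1 with DESeq2 size factors, 1 with no filter, 4 with DESeq2 and 0 to 4 with a library left out. For the difference between diets it was 0, and 2 with DESeq2 and 0 to 1 with a library left out. Directions turned among differences that did not pass. Under WD, Mogat1 went from -0.028 to 0.018 with upper-quartile scaling, 0.19 with limma-voom, 0.00185 with the length and GC offset and 0.084 with the replicate block, and Cidea to -0.012 with limma-voom. Between diets, Plin2 went from 0.042 to -0.031 with limma-voom and -0.031 with the replicate block. With a library left out, Cidea under HFD lay between -0.73 and 0.32. Under WD, the ranges were -0.34 to 0.21 for Cidea, -1.07 to 0.050 for G0s2, -0.40 to 0.61 for Mogat1, -0.16 to 0.37 for Plin2 and -0.028 to 0.20 for Plin5. Against N-LKO liver, tumor Plin5 lay between -0.081 and 0.29 and Pnpla2 between -0.34 and 0.083, and against WT liver Plin5 between -0.030 and 0.34. Between diets the ranges were -0.28 to 0.78 for Cidea, -0.76 to 0.0062 for Cidec, -0.86 to 0.22 for G0s2, -0.94 to 0.063 for Mogat1 and -0.25 to 0.28 for Plin2. The cause was not tested. Over all genes, calls ranged over the alternatives from 179 to 950 under HFD (652 as reported), 0 to 87 between genotypes under WD (0), 3 to 2193 in tumor against N-LKO liver (89), 569 to 3819 in tumor against WT liver (2653) and 0 to 972 between diets (257). Same-numbered libraries of WT and N-LKO under HFD correlated at 0.0832, 0.107, -0.0441 and -0.0759 in their deviations from group means. Those under WD lay between -0.124 and 0.101. With 3 or 4 libraries per group these values cannot show or exclude a pairing. The replicate block left 2 of the 10 genes called under HFD and 0 in the other comparisons, and moved the calls over all genes from 652 to 494 under HFD, from 89 to 36 and from 2653 to 1860 for tumor against N-LKO and WT liver, and from 257 to 0 between diets. With plain library sizes the mean of Plin2 was 974 CPM in WT liver and 701 CPM in tumor under WD.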
